A study of Mus musculus with 24 samples.

Results

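The 10 genes described here are grouped under the name of immediate early AP-1 and EGR factors. The set holds Fos, Fosb and Fosl2 of the FOS family, Jun, Junb and Jund of the JUN family, the zinc finger factors Egr1 and Egr2, and the immediate early response genes Ier2 and Ier3. Not every member is an immediate early gene in the strict sense, since Jund is found in resting cells. These genes are 10 of the 54532 in the expression table and were found by matching gene identifiers to these symbols in GENCODE M21, the mouse annotation on build GRCm38. Transcripts were counted in mouse macrophages grown from C57BL/6 bone marrow for 7 days in medium conditioned by L929 fibroblasts, which supplies macrophage growth factor. The cells were wild type (WT) or Trem2(-/-), called KO here, Trem2 being a lipid-sensing receptor on macrophages. Cells of each genotype stayed untreated or received one of 2 treatments for 24 hours, which gave 6 groups of 4 libraries and 24 libraries in all. S1P, the lipid sphingosine-1-phosphate, was given at 500 nM. ACM was serum-free medium in which hepatocytes of the mouse line AML12 had died by apoptosis, brought on by palmitate at 800 µM. No group had medium from healthy AML12 cells, palmitate alone or a stated S1P vehicle, so an agent and its medium cannot be told apart. The sources used here do not give the Trem2 allele, and they do not name the animals or cultures behind the libraries. The p-values therefore measure the spread between libraries, which may be technical.

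FOS and JUN proteins pair through leucine zippers to form AP-1, a transcription factor that binds the motif TGANTCA and relatives of it. JUN proteins pair with each other or with FOS proteins, whereas FOS proteins need a JUN partner. Transcripts of Fos, Egr1 and Ier2 typically appear within minutes of a stimulus and then decline, since MAP kinases switch on their promoters through the factors SRF and ELK and the messengers are short-lived. In macrophages AP-1 takes part in inflammatory gene expression and in differentiation. Cells harvested after 24 hours show the later level of such genes, not the early pulse.

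Promoter stretches of Fos, which rose with S1P in WT cells, and of Jun and Ier3, which fell, are shown, with the SRF-type boxes of Egr2, which rose. RefSeq promoter windows on GRCm38.p6, running from 250 bases before to 50 bases after a start site, were found for 8 members. Egr1 and Ier2 are named only. The stretches below end before the first transcribed base, and capitals mark every match, on either strand, to a searched motif. The motifs were TGACGTCA (the cyclic AMP element), TGANTCA (the AP-1 site), TGACATCA (the variant site known from Jun), the CArG box (bound by SRF), GCGNGGGCG (EGR), the TATA box TATAAA, the Sp1 site GGGCGG, the NF-kB site and TGACNNNGC (core of the antioxidant element).
Fos, chr12:85473640-85473889, plus strand: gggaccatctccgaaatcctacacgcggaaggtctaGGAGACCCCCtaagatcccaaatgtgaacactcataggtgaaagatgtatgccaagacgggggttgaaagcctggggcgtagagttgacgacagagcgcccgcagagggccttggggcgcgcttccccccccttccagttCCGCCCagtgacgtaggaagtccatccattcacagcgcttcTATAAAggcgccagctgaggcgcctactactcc
Jun, chr4:95052223-95052472, minus strand: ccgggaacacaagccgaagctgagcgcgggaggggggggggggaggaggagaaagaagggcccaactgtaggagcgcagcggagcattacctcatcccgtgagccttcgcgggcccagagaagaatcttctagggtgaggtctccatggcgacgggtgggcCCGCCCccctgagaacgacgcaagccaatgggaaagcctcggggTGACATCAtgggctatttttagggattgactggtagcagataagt
Ier3, chr17:35821463-35821683, plus strand: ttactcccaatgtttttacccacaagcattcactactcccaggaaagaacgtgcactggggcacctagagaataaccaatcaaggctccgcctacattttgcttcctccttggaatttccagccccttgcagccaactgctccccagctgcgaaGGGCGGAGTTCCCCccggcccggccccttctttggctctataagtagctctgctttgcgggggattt

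The Jun stretch held TGACATCA at positions -45 to -38, counted back from the start site, and 3.62% of all 32851 RefSeq mouse windows of this length held that motif. The Fos stretch held TATAAA at -33 to -28 (13.6% of windows), GGGCGG at -74 to -69 (35.7%) and an NF-kB match at -214 to -205 (8.46%). In Ier3 an Sp1 match at -96 to -91 overlapped an NF-kB match at -92 to -83. Egr2 has 5 RefSeq start sites, and windows of 4 of them held a CArG box, which 1.63% of all windows held. These are the CArG boxes of Egr2, in capitals, with 10 bases on either side.
Egr2, chr10:67537484-67537513, plus strand: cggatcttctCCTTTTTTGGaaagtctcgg
Egr2, chr10:67537787-67537816, plus strand: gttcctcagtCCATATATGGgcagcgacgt
Each box lay at -72 to -63 from a start site. Neither TGACGTCA (1.79% of windows) nor TGANTCA (7.81%) was found in any of the 12 windows of the 8 members. GCGNGGGCG (5.55% of windows) was found in Fosb and Fosl2, and TGACNNNGC (12.4%) in 3 of the Egr2 windows. The Jund window held none of the searched motifs; it lies upstream of the GENCODE start of Jund. A match is a string of letters, and no factor binding was measured.

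The values are FPKM, fragments scaled to exon length and to the size of the library, so levels can be roughly set side by side between genes. Jun, Junb and Jund share exon bases with genes on the opposite strand. How reads of such bases were counted is unstated, which limits comparisons of level that include these genes. The depth recovered from them was 16.6 to 25.2 M reads per library, and all values of the members came out as whole reads. Macrophage markers reached an FPKM of 1 for 7 of 7 genes, against 0 of 7 for hepatocytes, whose summed FPKM was at most 0.273, and 0 of 6 for fibroblasts. Trem2 was at 74.5 to 109 in the 12 WT libraries and at 35.7 to 40.7 in 11 of the 12 KO libraries. The library labelled KO untreated 81 had 79.6, a WT level, which goes against its label. It is kept in the tests, and results that rest on it are given with and without it. Each further list of 4 values follows the library numbers, which run 1 to 4 for WT untreated, 19 to 22 for WT ACM, 25 to 28 for WT S1P, 79 to 82 for KO untreated, 85 to 88 for KO ACM and 91 to 94 for KO S1P.

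Jun was the most abundant member at 55.2 to 78.2 FPKM over the 24 libraries, followed by Ier3 (33.6 to 69.7), Jund (31.2 to 76.4) and Junb (33.1 to 47.3). The ranges of these 4 genes overlapped. Ier2 (13 to 23.5), Fos (8.76 to 17.1) and Fosl2 (6.34 to 8.89) lay lower, and Egr2 had 1.67 to 4.33. Egr1, at 0.271 to 0.901 FPKM, rested on 24 to 78 reads per library, and Fosb, at 0.0424 to 0.136, on 6 to 17. A gene was tested when it reached an FPKM of 1 in 4 or more libraries; 8 members passed and Fosb and Egr1 did not. Tests used limma on log2(FPKM + 1) across 11377 genes, and a gene is called at a Benjamini-Hochberg adjusted p under 0.05. Differences are given on that log2 scale with their standard error (SE), and SDs are between libraries of a group.

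**Figure D1:**
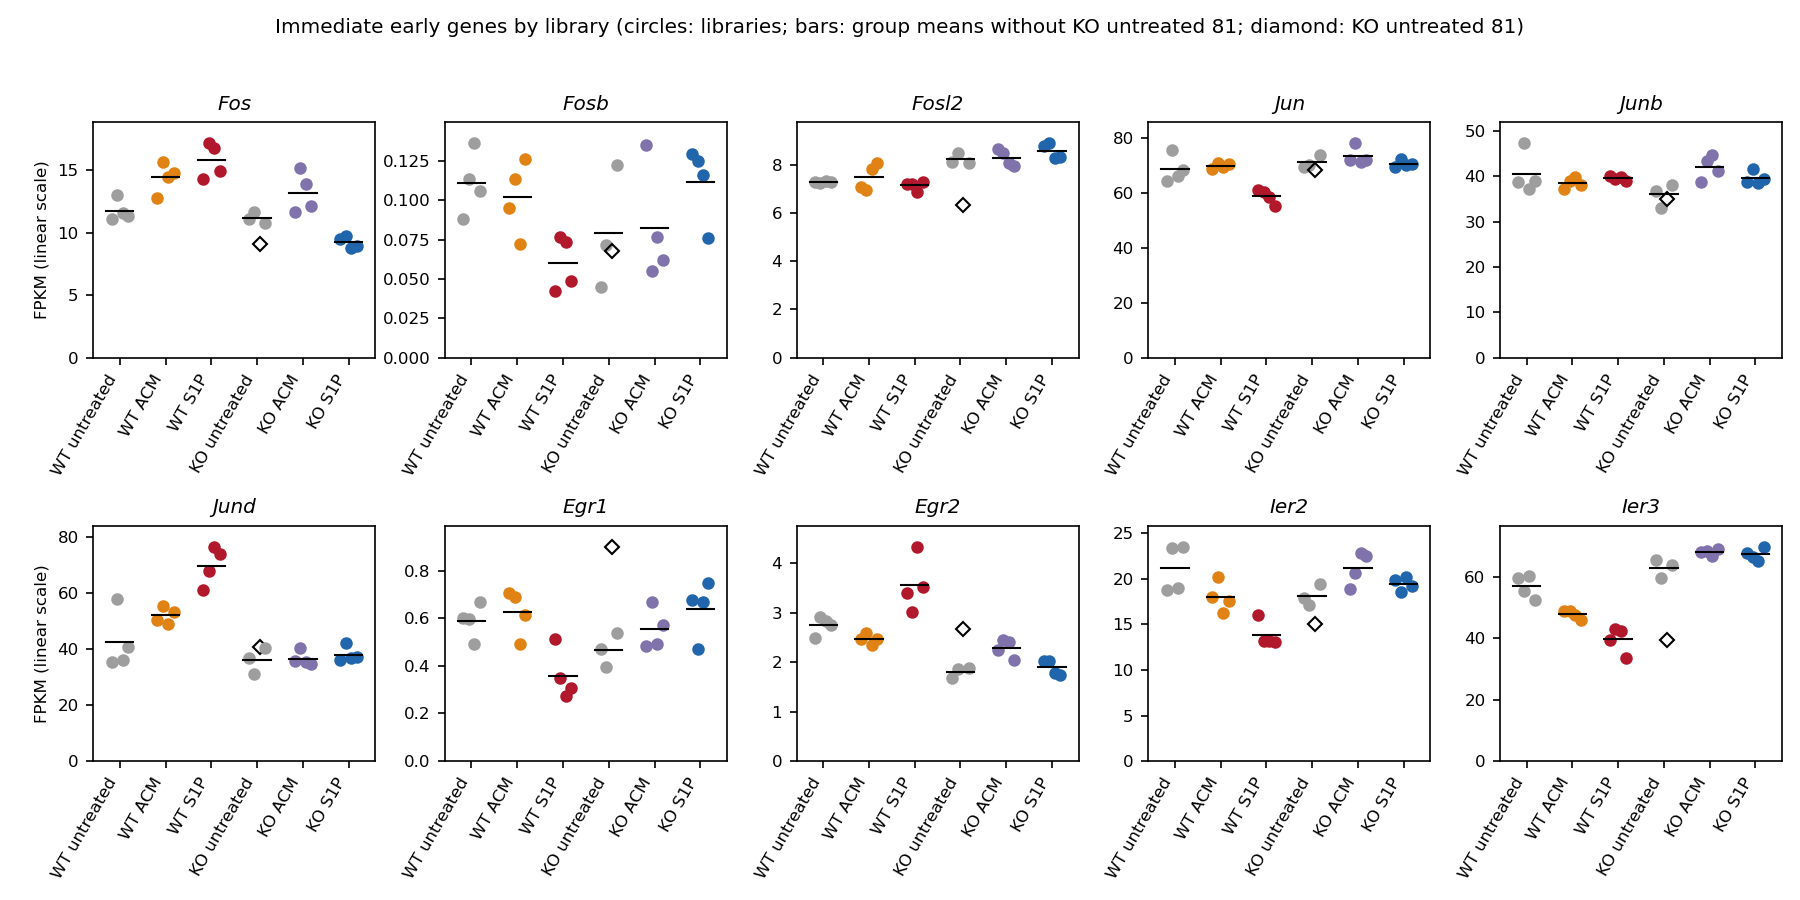
FPKM (linear axis from 0) of each member in every library, by group; circles are libraries, bars are group means without KO untreated 81, and the open diamond is KO untreated 81. Jund reaches 61.1 to 76.4 in WT S1P and at most 42.2 in KO cells, while Ier3 lies lowest in WT S1P at 33.6 to 43.0.

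In WT cells S1P changed 6 of the 8 tested members, 3 upward (Fos, Jund, Egr2) and 3 downward (Jun, Ier2, Ier3). Of all genes tested, 25.2% were called higher and 27.2% lower in that comparison. The median size of the difference, regardless of sign, was 0.34 log2 units over the 8 members and 0.17 over all genes. These medians are not matched for expression level, and the log2 scale understates changes of low genes. The members were also chosen with earlier results of these data known. Fosl2 and Junb did not pass. Without the library labelled KO untreated 81, which enters this comparison through the shared spread, the counts were again 3 and 3.

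Jund, the JUN protein found in resting cells, had 61.1, 67.7, 76.4 and 73.7 FPKM in WT S1P cells. In WT untreated cells it had 35.5, 57.9, 36.0 and 40.7, and in WT ACM cells 50.5, 55.3, 48.7 and 53.3. All 4 S1P libraries lay above all untreated and ACM libraries, and within untreated cells library 2 stood well above the other 3. Jund rose with S1P by 0.72 ± 0.11 (SE; limma adjusted p = 1.47e-05). With ACM its difference was 0.31 ± 0.11 and not called (limma adjusted p = 0.0568); without WT untreated 2 it was 0.46 and called (limma adjusted p = 0.000966). WT untreated 2 was also the highest untreated library for Junb, at 47.3 against 37.2 to 39.0, and for Jun, at 75.6 against 64.5 to 68.3. Jund (chromosome 8, 70698949 to 70700616, plus strand) is a single exon, of which 877 bases overlap the antisense gene Gm11175. The strand setting of the counting is unstated in the sources at hand, so reads of the pair cannot be told apart; Gm11175 itself was listed at 0.

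Jun, the founding AP-1 subunit, moved the other way. It had 61.0, 60.3, 58.7 and 55.2 FPKM in WT S1P cells against 64.5, 75.6, 66.1 and 68.3 in WT untreated cells, with no overlap. In WT ACM cells it had 68.9, 71.0, 69.7 and 70.7, inside the untreated range. Jun fell by 0.22 ± 0.04 log2 units with S1P (limma adjusted p = 0.000144) and did not pass with ACM, at 0.03 ± 0.04 (limma adjusted p = 0.638). Jun (chromosome 4, 95049034 to 95052222, minus strand) is 1 exon and shares 232 exon bases with the antisense gene Junos, whose mean FPKM was 0.613. Junb, which is known to restrain Jun activity in several settings, had 38.8, 47.3, 37.2 and 39.0 FPKM in WT untreated cells and 40.1, 39.5, 39.9 and 39.1 in WT S1P cells, at -0.03 ± 0.06 (limma adjusted p = 0.732). Junb (chromosome 8, 84974484 to 84978718, minus strand) shares 173 exon bases with Prdx2 on the opposite strand, a highly expressed peroxiredoxin with a mean FPKM of 50.6, and without strand these reads cannot be told apart.

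The Jund and Jun shares of the JUN family transcripts in WT S1P libraries did not overlap those of the other WT groups. The shares were not tested. Jund made up 27.7% ± 3.0 of the summed JUN family FPKM in untreated, 32.3% ± 1.15 in ACM and 41.4% ± 2.95 in S1P cells of the WT genotype (SD, n = 4 each). Jun made up 45.5% ± 2.51, 43.6% ± 0.506 and 35.0% ± 2.19. The Jund share was 25.6 to 32.0% in WT untreated and 30.8 to 33.5% in WT ACM libraries, which overlap. The Jun share in WT ACM, 42.9 to 44.0%, lay inside the WT untreated range of 41.8 to 47.5%. The sum itself was 139 to 181 FPKM in WT untreated and 162 to 175 in WT S1P libraries, which overlap. In KO cells Jund made up 25.1% ± 1.72 without the library labelled KO untreated 81 (n = 3; 25.9% ± 2.08 with it), 24.0% ± 0.791 under ACM and 25.6% ± 0.963 under S1P (n = 4 each). The shares are over transcripts, and no protein was measured. They also carry the limit of the exon bases shared with genes on the opposite strand.

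**Figure D2:**
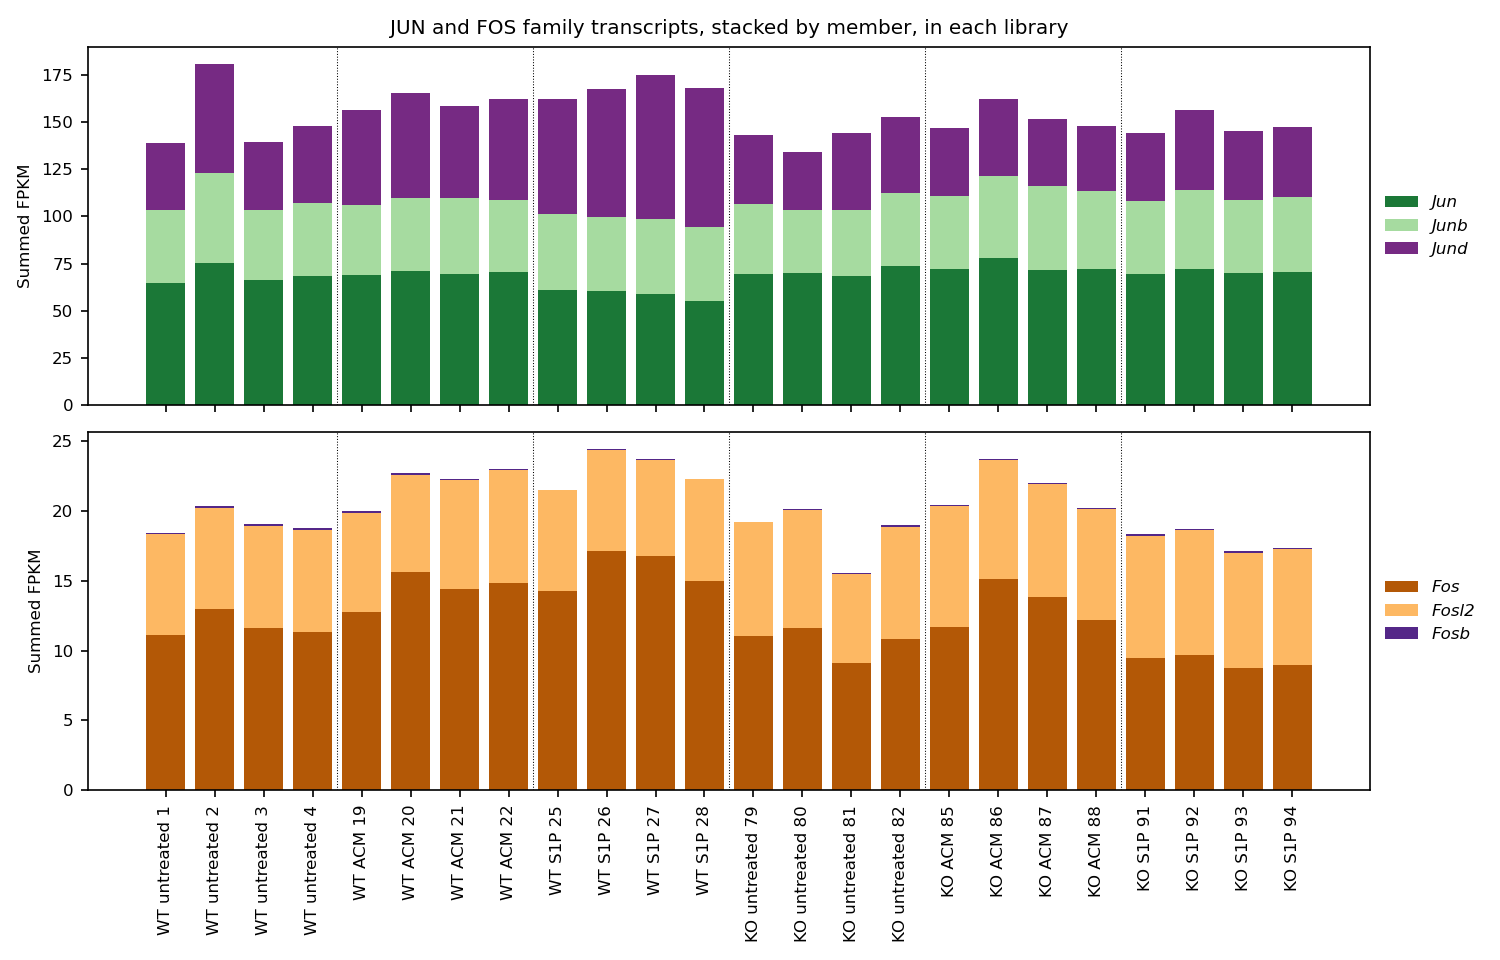
Summed FPKM of Jun, Junb and Jund (top) and of Fos, Fosl2 and Fosb (bottom) in each of the 24 libraries, stacked by member, with dotted lines between groups. The Jund segment is tallest in WT S1P, at 61.1 to 76.4 FPKM, and the Fos segment is shortest in KO S1P and in KO untreated 81, at 8.76 to 9.71.

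Among the FOS genes, Fos had 14.3, 17.1, 16.8 and 15.0 FPKM in WT S1P, 12.8, 15.7, 14.4 and 14.8 in WT ACM, and 11.1, 13, 11.6 and 11.4 in WT untreated cells. The S1P libraries lay above all untreated ones, and the ACM libraries overlapped them through library 2 (13) and library 19 (12.8). Fos rose by 0.39 ± 0.08 with S1P (limma adjusted p = 0.000255) and by 0.27 ± 0.08 with ACM (limma adjusted p = 0.0177). The ACM rise did not pass with the libraries scaled to TPM, at 0.17 (limma adjusted p = 0.184), a scaling that moves the median of all genes in this comparison by -0.11. It also did not pass without WT untreated 1 (0.25, limma adjusted p = 0.0524) or without WT ACM 20 (0.23, limma adjusted p = 0.0617). Fosl2, a FOS protein that lacks the strong activating domain of Fos, had 7.26 to 7.34 FPKM in WT untreated, 6.94 to 8.09 in WT ACM and 6.86 to 7.31 in WT S1P cells, groups that overlap. Fosl2 lies on chromosome 5 from 32135801 to 32157842, plus strand. Fos (chromosome 12, 85473890 to 85477273, plus strand) made up 61.3% ± 1.67 of the FOS family FPKM without treatment and 68.5% ± 2.23 after S1P in WT cells (SD, n = 4 each). Fosb (chromosome 7, 19302696 to 19310051, minus strand) had 0.0424, 0.0768, 0.0731 and 0.0488 FPKM in WT S1P against 0.0882, 0.114, 0.136 and 0.106 in WT untreated cells, with no overlap. An exact 2-sided permutation test gave p = 0.0286 for Fosb, the smallest that 4 against 4 libraries allow, and it was 1 of 90 such tests. With every gene above 0 kept in the fit, Fosb differed by -0.07 ± 0.02 and was not called (limma adjusted p = 0.0589).

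Egr2, an activator known for roles in myelin formation and in macrophage and lymphocyte gene programs, had 3.39, 3.01, 4.33 and 3.52 FPKM in WT S1P cells. It had 2.5, 2.92, 2.83 and 2.75 in WT untreated and 2.46, 2.60, 2.34 and 2.47 in WT ACM cells. Every S1P library was above every untreated and ACM library. Egr2 rose with S1P by 0.28 ± 0.08 (limma adjusted p = 0.00876), and without WT S1P 27, its highest library, the rise was 0.20 (limma adjusted p = 0.0512). Egr2 lies on chromosome 10 from 67535475 to 67542188, plus strand. Egr1, its close relative and a classical MAP kinase target, had 0.512, 0.348, 0.271 and 0.306 FPKM in WT S1P and 0.602, 0.599, 0.493 and 0.668 in WT untreated cells. Only library 25 of the S1P group reached the untreated range. Egr1 differed by -0.23 ± 0.08 with S1P in the fit of all genes above 0 (limma adjusted p = 0.0528; exact 2-sided permutation p = 0.0571) and was not called.

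Ier2 encodes a small nuclear protein of the early response, and Ier3 a membrane protein that is known to modulate cell survival and NF-kB signalling. Ier2 had 16.0, 13.2, 13.2 and 13 FPKM in WT S1P and 18.7, 23.4, 19 and 23.5 in WT untreated cells. Ier3 had 39.4, 43.0, 42.4 and 33.6 in WT S1P and 59.5, 55.2, 60.1 and 52.5 in WT untreated cells. Ier2 lies on chromosome 8 from 84661331 to 84662852, minus strand, and Ier3 on chromosome 17 from 35821684 to 35822923, plus strand. Neither gene's groups overlapped. Ier2 fell by 0.57 ± 0.09 (limma adjusted p = 8.9e-06) and Ier3 by 0.52 ± 0.10 (limma adjusted p = 0.000257). Under ACM, Ier2 had 18.0, 20.3, 16.3 and 17.6 and Ier3 48.7, 48.7, 47.6 and 46.0. All 4 ACM libraries of Ier3 lay below all untreated and above all S1P libraries. The ACM differences were -0.21 ± 0.09 for Ier2 and -0.24 ± 0.10 for Ier3 and were not called (limma adjusted p = 0.0822 and 0.0983). With the library labelled KO untreated 81 left out, the shared spread of Ier3 is smaller, and Ier3 was then called, at -0.24 ± 0.06 (limma adjusted p = 0.00313).

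With ACM in WT cells, 1 member was thus called higher (Fos) and 0 lower by limma, while 12.2% of all genes were called higher and 9.85% lower. At an unadjusted p under 0.05 the number was 4 of 8 (Fos, Jund, Ier2 and Ier3). The share of all genes at that unadjusted threshold was not counted. With the library labelled KO untreated 81 left out, 2 members were called, against 24.9% of all genes. Set directly against S1P, WT ACM cells had 3 members higher (Jun, Ier2, Ier3) and 2 lower (Jund, Egr2), where 23.0% of all genes were called higher and 18.5% lower. The sizes were 0.25 ± 0.04 for Jun (limma adjusted p = 6.07e-05) and 0.36 ± 0.09 for Ier2 (limma adjusted p = 0.00213). They were -0.41 ± 0.11 for Jund and -0.39 ± 0.08 for Egr2 (limma adjusted p = 0.00574 and 0.000831). Ier3, at 0.27 ± 0.10 (limma adjusted p = 0.0421), lost its call under several settings and without 6 of the single libraries. Egr1, in the fit of all genes above 0, was 0.26 ± 0.08 higher with ACM than with S1P (limma adjusted p = 0.0345), where 16.7% of 27013 genes were called; its groups overlapped, and the exact 2-sided permutation p was 0.0571.

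In KO cells 0 of the 8 members were called by limma with ACM, and 0 with S1P. Of all genes tested 1 was called in each, which is 0.00879% (Oas2 with ACM and Dennd4b with S1P). At an unadjusted p under 0.05, 4 members passed with ACM and 4 with S1P. The member counts were again 0 and 0 without the library labelled KO untreated 81, against 0.0439% and 0.185% of all genes. At an unadjusted p under 0.05 they were then 4 and 2. No share of all genes was counted at the unadjusted threshold, so the unadjusted member counts have nothing to be set against.

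Jund in KO cells had 36.8, 31.2, 40.6 and 40.5 FPKM untreated, 35.8, 40.4, 35.2 and 34.7 with ACM, and 35.9, 42.2, 36.7 and 37.2 with S1P. The 3 groups overlapped, and the S1P difference was 0.03 ± 0.11 (limma adjusted p = 0.953). Jun, with 69.6, 70.1, 68.4 and 74.0 untreated and 69.4, 72.3, 70.2 and 70.8 with S1P, differed by 0.00 ± 0.04 (limma adjusted p = 0.987). Ier3 had 65.4, 59.5, 39.3 and 63.7 untreated, 68.0, 68.3, 66.7 and 68.8 with ACM, and 67.6, 66.4, 65.2 and 69.7 with S1P. The low value is the library labelled KO untreated 81, which was in the range of WT S1P cells. The S1P difference of Ier3 was 0.26 ± 0.10 with that library and 0.10 ± 0.06 without it (limma adjusted p = 0.384 and 0.703).

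Ier2 in KO cells had 17.9, 17.1, 15.0 and 19.4 untreated, 18.9, 20.7, 22.8 and 22.5 with ACM and 19.9, 18.6, 20.2 and 19.3 with S1P. Junb had 36.8, 33.1, 35.0 and 38.2 untreated, 38.8, 43.5, 44.8 and 41.2 with ACM, and 38.8, 41.7, 38.5 and 39.4 with S1P. For Junb every treated library lay above every untreated one, with differences of 0.23 ± 0.06 under ACM and 0.14 ± 0.06 under S1P (limma adjusted p = 0.186 and 0.389). Egr2 had 1.67, 1.87, 2.68 and 1.87 untreated, 2.25, 2.44, 2.41 and 2.05 with ACM, and 2.02, 2.02, 1.79 and 1.75 with S1P. Here the library labelled KO untreated 81 was again apart from its group, at a WT untreated level.

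Fos in KO cells had 11.1, 11.6, 9.12 and 10.8 FPKM untreated, 11.7, 15.2, 13.9 and 12.2 with ACM, and 9.45, 9.71, 8.76 and 8.97 with S1P. All ACM libraries were above and, apart from the library labelled KO untreated 81, all S1P libraries below the untreated ones. Neither difference from untreated was called, at 0.28 ± 0.08 with ACM and -0.18 ± 0.08 with S1P (limma adjusted p = 0.248 and 0.427). When the library labelled KO untreated 81 was left out they were 0.22 ± 0.08 and -0.25 ± 0.08 (limma adjusted p = 0.442 and 0.274). Set against each other, KO ACM was 0.47 ± 0.08 above KO S1P (limma adjusted p = 0.0335), and Fos was the 1 member called among 4 genes of the whole table, or 0.0352%. The other 3 were Tcirg1 (a proton pump subunit), Cxcl2 (a neutrophil-attracting chemokine) and Lilr4b, each higher with ACM. The call was lost without any of 12 single libraries and under 5 other settings (limma adjusted p up to 0.14). Without the library labelled KO untreated 81 it held, at 0.47 (limma adjusted p = 0.0064), where 0.246% of all genes were called.

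**Figure D3:**
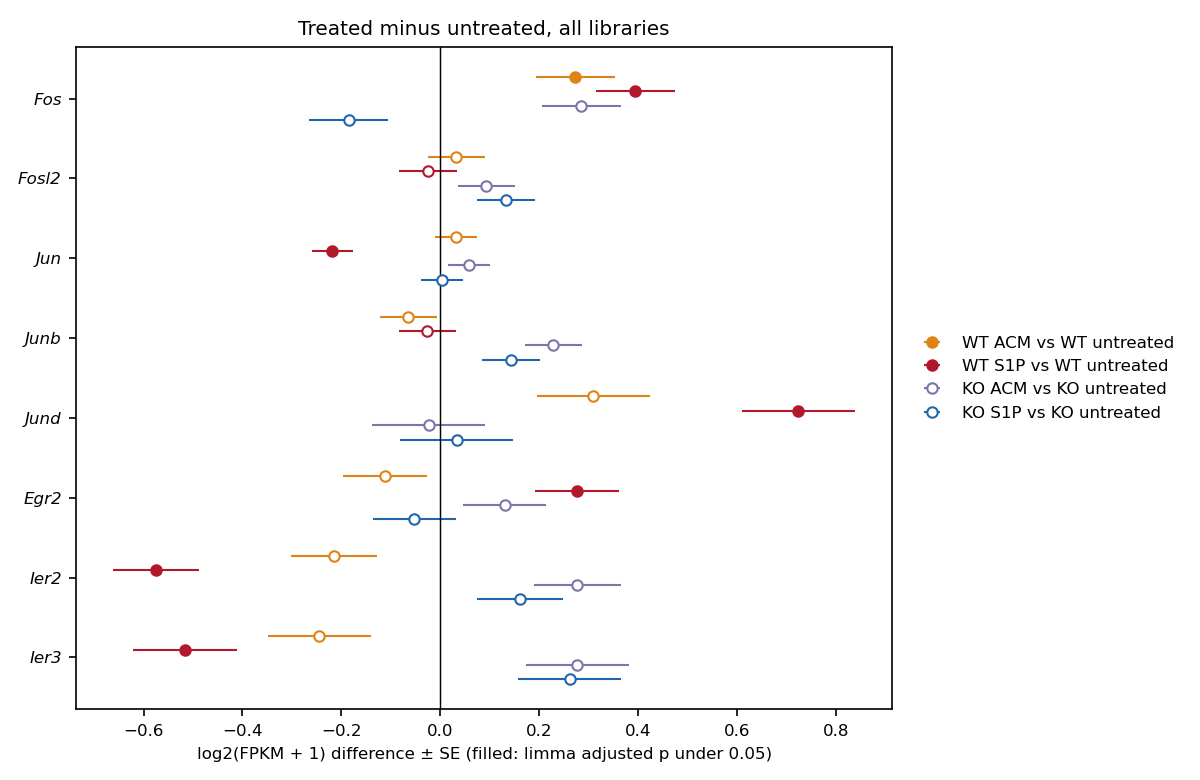
Difference in log2(FPKM + 1) between treated and untreated cells for the 8 tested members, with SE bars, all libraries included; filled points have a limma adjusted p under 0.05. Filled points occur only for WT comparisons, 6 with S1P and 1 with ACM, and Ier2, Ier3 and Jund show the widest spacing between WT S1P and KO S1P.

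The difference between genotypes in the response was tested directly as an interaction. It is the KO difference minus the WT difference, so its sign does not tell which genotype responded more. For S1P, 3 members were called above 0 and 3 below, beside 22.5% and 19.4% of all genes. Those above 0 were Jun at 0.22 ± 0.06, Ier2 at 0.74 ± 0.12 and Ier3 at 0.78 ± 0.15 (limma adjusted p = 0.0044, 5.49e-05 and 0.000211). Their WT differences were -0.22, -0.57 and -0.52, and their KO differences of 0.00, 0.16 and 0.26 were not called. Those below 0 were Fos at -0.58 ± 0.11, Jund at -0.69 ± 0.16 and Egr2 at -0.33 ± 0.12 (limma adjusted p = 0.000272, 0.0015 and 0.0312). Their WT differences were 0.39, 0.72 and 0.28, and their KO differences of -0.18, 0.03 and -0.05 were not called. All 6 are the members that S1P changed in WT cells, each with the opposite sign, and both comparisons share the WT libraries. When the library labelled KO untreated 81 was left out, 5 were called, against 41.5% of all genes; Egr2 no longer was, at -0.23 ± 0.10 (limma adjusted p = 0.0702), and it also lost its call with no filter, with only the groups compared and without WT untreated 1, WT S1P 27, KO S1P 93 or KO S1P 94. Fosb, in the fit of all genes above 0, had an S1P interaction of 0.11 ± 0.04 (limma adjusted p = 0.0285), where 17.0% of 27013 genes were called, and it rests on 6 to 17 reads a library.

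For ACM, the interaction was called above 0 for 3 members and below 0 for 0, beside 7.41% and 9.64% of all genes. They were Junb at 0.29 ± 0.08, Ier2 at 0.49 ± 0.12 and Ier3 at 0.52 ± 0.15 (limma adjusted p = 0.0166, 0.00835 and 0.0184). In each of the 3 the KO difference from untreated was above 0 and the WT difference below 0. With all libraries none of those 6 differences was called on its own. For Ier3 the KO difference was 0.28 ± 0.10 with the library labelled KO untreated 81 and 0.11 ± 0.06 without it (limma adjusted p = 0.431 and 0.707). Its WT difference of -0.24 was called without that library (limma adjusted p = 0.00313). The 3 interactions were then 0.28, 0.43 and 0.36. Egr2 was then called as well at 0.34 ± 0.10 (limma adjusted p = 0.0259), so 4 members were called against 14.9% of all genes. Jund was at -0.33 ± 0.16 and not called (limma adjusted p = 0.168); without WT untreated 2 it was called at -0.49 (limma adjusted p = 0.00832).

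The genotypes were then compared within each condition. The labels hold no batch, but all WT libraries carry lower numbers than all KO libraries, so genotype and any difference in preparation cannot be told apart. Each treatment group also has its own run of consecutive numbers, so the same limit holds for the treatment comparisons and the interactions. In untreated cells Egr2 was the 1 member lower in KO and 0 were higher, beside 1.21% and 1.26% of all genes. Egr2 was at -0.32 ± 0.08 (limma adjusted p = 0.047) with the library labelled KO untreated 81 and at -0.42 ± 0.07 (limma adjusted p = 0.000847) without it. The call with all libraries was lost with no filter, with median scaling, with only the groups compared (limma adjusted p = 0.181) and without any of 20 single libraries. Its 3 other KO untreated values of 1.67 to 1.87 FPKM lay below all WT untreated values of 2.5 to 2.92. Without that library Fosl2 was also called, higher in KO at 0.15 ± 0.04 (limma adjusted p = 0.0259), so 2 members were called against 8.16% of all genes. Fosl2 then had 8.07 to 8.48 FPKM in KO and 7.26 to 7.34 in WT untreated cells, with no overlap; the library labelled KO untreated 81 had 6.34, below both groups.

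With ACM, Ier3 was higher in KO cells at 0.50 ± 0.10 and Jund lower at -0.50 ± 0.11 (limma adjusted p = 0.00097 and 0.00228), beside 12.5% of all genes called higher and 15.5% lower. The KO ACM values of Ier3, 66.7 to 68.8 FPKM, lay above the WT ACM values of 46.0 to 48.7, and those of Jund, 34.7 to 40.4, below the WT ACM values of 48.7 to 55.3. Without the library labelled KO untreated 81, 4 members were called against 29.6% of all genes, Fosl2 and Ier2 being added at 0.13 ± 0.04 and 0.22 ± 0.08 (limma adjusted p = 0.0137 and 0.0445).

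With S1P, 7 of 8 members differed between genotypes, 4 higher and 3 lower in KO, where 26.9% of all genes were called higher and 25.4% lower. The median size of the difference was 0.56 over the 8 members and 0.17 over all genes, again not matched for expression level. Jund at -0.86 ± 0.11, Fos at -0.71 ± 0.08 and Egr2 at -0.65 ± 0.08 were lower in KO (limma adjusted p = 1.74e-06, 1.59e-07 and 1.23e-06). Ier3 at 0.76 ± 0.10, Ier2 at 0.47 ± 0.09, Jun at 0.26 ± 0.04 and Fosl2 at 0.23 ± 0.06 were higher (limma adjusted p = 2.72e-06, 0.000105, 1.67e-05 and 0.00217). The libraries of the genotypes did not overlap for any of these 7. They were called from the same values, and the share of all genes without overlap was not counted. Junb was at 0.00 ± 0.06 (limma adjusted p = 0.969). Egr1, in the fit of all genes above 0, was 0.27 ± 0.08 higher in KO (limma adjusted p = 0.0193), where 23.1% of 27013 genes were called, with overlapping groups of 0.471 to 0.749 and 0.271 to 0.512 FPKM.

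**Figure D4:**
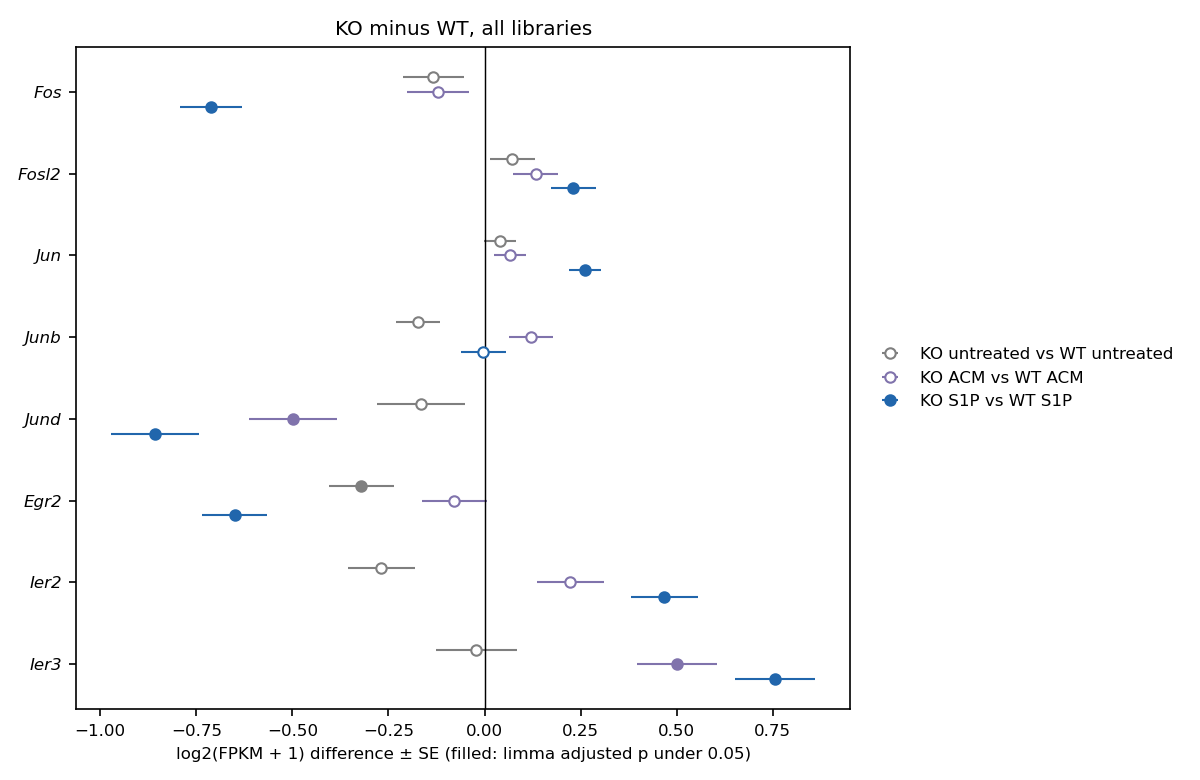
KO minus WT difference in log2(FPKM + 1) for the 8 tested members in untreated, ACM and S1P cells, with SE bars, all libraries included; filled points have a limma adjusted p under 0.05. The filled points number 1 in untreated, 2 in ACM and 7 in S1P cells, from -0.86 for Jund to 0.76 for Ier3.

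Marker lists moved with genotype and treatment as well. The summed FPKM of 7 granulocyte genes was 5.43 to 10.7 in WT libraries and 15.3 to 23.2 in KO libraries other than KO untreated 81, which had 6.90. Elane, the neutrophil elastase gene, stood at 0.0516 to 0.772 in WT and 0.919 to 2.30 in KO libraries, the lowest of which was KO untreated 81. The other genes of the list overlapped between genotypes with that library included. S100a9 and S100a8, the highest of them, had 1.75 to 6.41 and 1.61 to 3.02 in WT libraries. In KO libraries they had 2.31 to 12.3 and 2.78 to 7.77. Ly6g had 0 to 0.299 in WT and 0 to 0.286 in KO libraries and was at 0 in 8 of 24. The summed FPKM of 7 macrophage genes was 7231 to 7457 in WT untreated, 4151 to 5730 in WT S1P and 4068 to 4500 in KO untreated libraries, with 5978 in the library labelled KO untreated 81. Most of that sum was 1 gene, the lysozyme gene Lyz2, whose mean was 5792 in WT untreated, 3280 in WT S1P and 2691 in KO untreated cells without library 81. Other genes of the list went other ways: Cd68 had means of 834, 1013 and 865 in those groups, Csf1r, the receptor for macrophage growth factor, 309, 254 and 334, and Mertk 10.6, 8.0 and 15.3. A list of 5 heat shock genes, which respond to handling, summed to 29.1 to 30.6 FPKM in WT untreated, 33.0 to 34.9 in WT ACM, 33.7 to 34.7 in WT S1P and 25.3 to 28.6 in KO libraries other than KO untreated 81, which had 31.4. The hepatocyte genes, all near 0, summed to at most 0.0242 FPKM in WT untreated, 0.0732 to 0.211 in WT ACM and 0.110 to 0.273 in WT S1P libraries. KO libraries had 0, other than KO untreated 81 at 0.110. The part of these lists in the members' differences was not tested. In bulk RNA, fewer cells of a type and less RNA per cell cannot be told apart.

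Other genes of the pathway were taken from 7 lists, of which 72 genes passed the filter. With S1P in WT cells 47 of the 72 were called, beside 52.4% of all genes, and with ACM 23, beside 22.1%. The counts of each list with S1P stand beside the 25.2% of all genes called higher and 27.2% called lower. Related genes called in KO cells numbered 0 with either treatment by limma, beside 0.00879% of all genes. At an unadjusted p under 0.05 they numbered 14 with S1P and 8 with ACM, a threshold at which all genes were not counted. By limma adjusted p, 0 were called with library 81 left out. Of 10 other AP-1 partners with a leucine zipper, 5 rose and 1 fell with S1P in WT cells. Atf3, a stress-induced factor that pairs with JUN proteins, had 71.3 ± 1.19 FPKM untreated, 106 ± 1.65 with ACM and 187 ± 34.2 with S1P in WT cells (SD, n = 4 each), a rise of 0.57 ± 0.13 with ACM and 1.36 ± 0.13 with S1P (limma adjusted p = 0.00324 and 1.5e-08). It had 56.9 ± 1.16 in KO S1P and 57.4 ± 2.9 in KO untreated cells without library 81 (SD, n = 4 and 3), and 98.5 in that library. Batf2 rose by 0.51 and Mafk by 0.51 with S1P, and Jdp2, a repressor that pairs with JUN proteins, fell by 0.24 (limma adjusted p = 0.00154, 2.56e-06 and 0.0151).

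Nab2, a corepressor that binds EGR proteins, was 1 of 2 tested genes of its list. It had 12.1 ± 1.25 FPKM without treatment and 8.72 ± 0.496 after S1P in WT cells (SD, n = 4 each) and fell by 0.43 ± 0.06 (limma adjusted p = 3.8e-06). Egr2 rose in that comparison and Nab2 fell. In untreated cells Nab2 was also lower in KO, at -0.33 (limma adjusted p = 0.00574), as was Egr2.

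Of 11 genes for MAP kinase phosphatases and Sprouty or Spred inhibitors, 5 rose and 3 fell with S1P in WT cells. Dusp1 had 11.9 ± 1.28 FPKM untreated and 24.4 ± 4.02 with S1P, a rise of 0.97 ± 0.09 (limma adjusted p = 1.73e-08). Dusp5 rose by 0.80 ± 0.09 and Dusp8 by 0.93 ± 0.10 (limma adjusted p = 8.37e-08 and 4.39e-08). Dusp6, a phosphatase specific for ERK, had 79.6 ± 1.78 untreated and 41.1 ± 10.9 with S1P and fell by 0.97 ± 0.11 (limma adjusted p = 1.44e-07). Spred2, an inhibitor of the pathway from RAS to ERK, fell by 0.40 ± 0.05 (limma adjusted p = 1.33e-06). The phosphatases thus moved in both directions.

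Among 21 other immediate early genes 9 rose and 3 fell with S1P in WT cells. Plk2 had 35.1 ± 2.1 FPKM untreated, 60.5 ± 1.6 with ACM and 84.1 ± 14 with S1P (SD, n = 4 each), and Gadd45b, a stress-induced gene, 10.8 ± 1.1, 14.7 ± 0.87 and 25.2 ± 5.4. They rose with S1P by 1.22 ± 0.19 and 1.13 ± 0.16 (limma adjusted p = 9.14e-06 and 2.96e-06). Zfp36l1, which destabilizes AU-rich messengers, had 18.7 ± 1.4 untreated and 8.23 ± 1.8 with S1P and fell by 1.11 ± 0.09 (limma adjusted p = 2.72e-09). Of 15 genes for MAP kinases, SRF and its partners, 3 rose and 7 fell, among the latter Elk3 by 0.42 ± 0.07 (limma adjusted p = 1.05e-05). Heat shock genes numbered 3 higher and 1 lower of 4, with Hsph1 at 0.55 ± 0.04 (limma adjusted p = 7.07e-10).

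Of 9 tested textbook AP-1 targets, 2 rose and 4 fell with S1P in WT cells, and 2 rose and 2 fell with ACM. Mmp9, a gelatinase, had 3.71 ± 0.27 FPKM untreated, 19.6 ± 1.6 with ACM and 13.9 ± 3.3 with S1P in WT cells (SD, n = 4 each). The collagenase gene Mmp13 had 34.3 ± 1.7, 15.9 ± 1.6 and 18.5 ± 3.4 in the same groups, and Plau, the urokinase gene, 232 ± 4.1, 163 ± 0.94 and 107 ± 12. Plau fell by 1.12 ± 0.09 and Ccnd1, cyclin D1, by 0.63 ± 0.10 with S1P (limma adjusted p = 1.08e-09 and 1.13e-05). Mmp9 rose by 1.63 ± 0.34 while Mmp13 fell by 0.87 ± 0.25 (limma adjusted p = 0.000329 and 0.00584), so targets on the list moved in opposite directions. In KO S1P cells Plau was at 280 ± 3.2 FPKM and Mmp9 at 1.55 ± 0.26 (SD, n = 4 each).

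**Figure D5:**
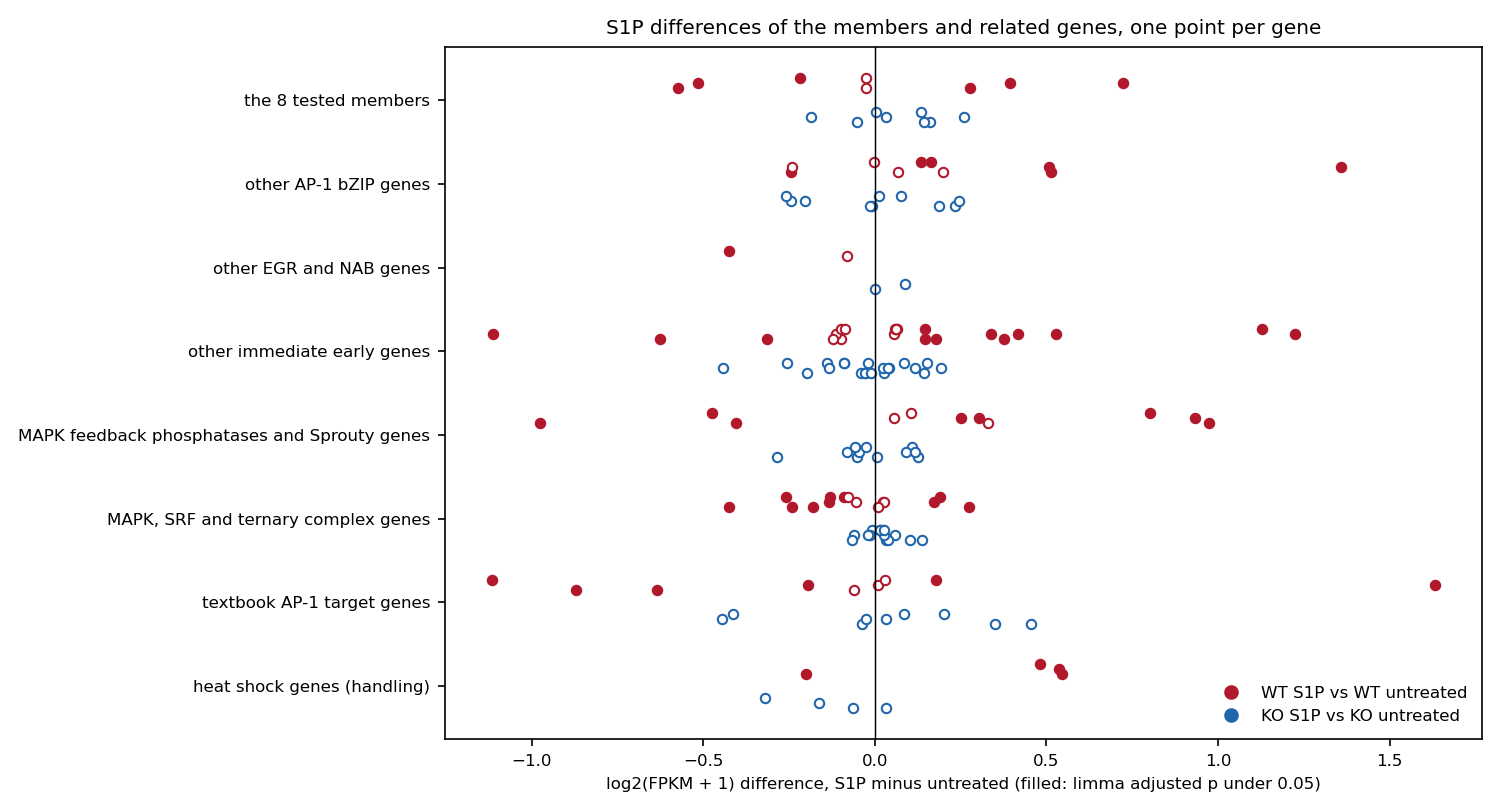
Difference in log2(FPKM + 1) between S1P and untreated cells, one point per gene, for the 8 tested members and 7 lists of related genes in WT and KO cells, all libraries included; filled points have a limma adjusted p under 0.05. The WT points run from -1.12 for Plau to 1.63 for Mmp9, and all KO points are open.

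Over the 6 group means the members ranged by 0.91 log2 units for Jund, 0.77 for Ier3, 0.71 for Fos, 0.65 for Egr2, 0.58 for Ier2, 0.32 for Jun, 0.23 for Fosl2 and 0.23 for Junb. Jund was lowest in KO ACM and highest in WT S1P, and Ier3 lowest in WT S1P and highest in KO ACM. The genes whose centred log2 values lay nearest to Jund over the 24 libraries, among 9891 candidates, were Hmga1, Ckap4 and Trabd, with a root mean square difference of 0.11 for Hmga1 where Jund itself varied by 0.36. For Ier3 they were Ctsl (a lysosomal protease, 0.10, against 0.30 for Ier3 itself), Ccr1 and Klhl6. For Fos they were Tcirg1 (0.14, against 0.26 for Fos itself), Fastk and Abcc5.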

How the data were processed

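The expression values are FPKM that the authors deposited for 24 libraries. Per the labels' protocols, messenger RNA was captured with oligo(dT). Builds mm10 and GRCm38 are named in the submitters' processing notes, as are StringTie, featureCounts, STAR, HISAT2, STAR-Fusion, DESeq and edgeR. No role, version or use of strand is stated for them in the sources at hand. Gene lengths of GENCODE M21 turned 96.7 to 97.1% of values above 0 in a library into whole reads (tolerance 0.05).

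Groups came from the labels. Genes at FPKM 1 or more in at least 4 libraries (11377) were tested with limma 3.58.1 (R 4.3.3). One model held 6 means, one for each group, of log2(FPKM + 1), with a trend of variance on mean, and Benjamini-Hochberg adjustment ran over all genes tested. This scale understates changes of low genes. Single genes were also tested with exact 2-sided permutation tests (SciPy 1.17.1). The fit was also run on simulated data with known changes placed in WT S1P only. That run is not used as support for any difference of the members. The members and gene lists were chosen with earlier results of these data known. All members are described. From each related list the rule takes up to 4 genes with the smallest adjusted p over the treatment comparisons with untreated cells. It also takes up to 4 over the genotype comparisons within each condition. The text gives a selection of these genes, made with their values known. Likeness is the root mean square difference of centred log2 values, for 3 genes per member and 3 members. Oas2, Dennd4b, Cxcl2 and Lilr4b were named after their values were seen. Alternatives were a pseudocount of 0.1, no filter, a filter at FPKM 5, TPM, median and quantile scaling, only the groups compared, and leaving out each library.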

Additional observations from a re-analysis of the deposited data

Results flagged for a closer look

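Among 66 groups of 4 libraries, of the 10 members and Trem2, 3 had a library far from the others, where chance gives about 1 group in 20. Jun in KO ACM 86 was at 78.2 FPKM against 71.5 to 72.1 in the other 3 libraries. Ier2 in WT S1P 25 was at 16.0 FPKM against 13 to 13.2. Trem2 in the library labelled KO untreated 81 was at 79.6 FPKM against 35.7 to 40.2.

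The response differed between genotypes by the interaction test, as KO minus WT on the log2 scale, for 9 results. With ACM these were Junb at 0.29, Ier2 at 0.49 and Ier3 at 0.52. With S1P they were Fos at -0.58, Jun at 0.22, Jund at -0.69, Egr2 at -0.33, Ier2 at 0.74 and Ier3 at 0.78. The cause of these differences was not tested.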

How the results depend on the processing

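Of 88 member differences tested with limma, 32 were called, and 25 of these kept their call under every setting in which they were tested, of 31 other settings, 24 of which leave out 1 library. Of the 25, 23 were tested under all 31, and 2, both of Egr2, were not tested with the filter at FPKM 5, which removes Egr2. None of the 32 changed sign in the settings tested. Those that lost it somewhere were Fos with ACM in WT, Egr2 with S1P in WT, Ier3 in WT ACM against WT S1P, Fos in KO ACM against KO S1P, Egr2 in KO against WT untreated, Ier3 in the ACM interaction (no filter, adjusted p = 0.0515) and Egr2 in the S1P interaction. The number of members called with ACM in WT was 2 with a filter at FPKM 5, with TPM scaling and with only the groups compared, and 1 to 2 over single libraries left out. In KO ACM against KO S1P it was 0 with no filter, TPM, median or quantile scaling or only the groups compared, and 0 to 1 over single libraries. In KO against WT untreated it was 0 with no filter, median scaling or only the groups compared, and 0 to 2 over single libraries. It was also 0 with a filter at FPKM 5, which removes Egr2, the 1 member called, so this is no test of that call. In KO ACM against WT ACM it was 5 with quantile normalization and 2 to 4 over single libraries. For these comparisons the share of all genes called was not counted under the other filters and scalings or with only the groups compared. Among single libraries left out, it was counted only for the KO untreated library with a WT level of Trem2. Under the other settings the shifts in member counts therefore have nothing to be set against. How many calls of all genes were kept under every setting was not counted either. The cause of these shifts was not tested.

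Differences that were not called changed sign near 0. With TPM scaling Fosl2 and Jun with ACM in WT became -0.0775 and -0.0851, Jun and Jund with S1P in KO -0.0386 and -0.00861, Fosl2 in WT ACM against WT S1P -0.0110 and Jun in KO against WT untreated -0.0142. That scaling shifted the all-gene median by -0.11 with ACM in WT and by 0.11 in the ACM interaction. With quantile normalization Jun with ACM in WT was -0.0195, Fosl2 with S1P in WT 0.0105, Jun with S1P in KO -0.0189 and Junb in KO S1P against WT S1P 0.0127. With median scaling Fosl2 and Junb with S1P in WT were 0.0106 and 0.00855, and Fos in the ACM interaction -0.0062. Over single libraries left out, the ACM interactions ran from -0.0538 to 0.0651 for Fos, -0.0218 to 0.10 for Fosl2 and -0.0208 to 0.0544 for Jun. Jund with ACM in KO ran from -0.10 to 0.0198. With S1P in KO, Egr2 ran from -0.11 to 0.0457, Jun from -0.0106 to 0.0266 and Jund from -0.0479 to 0.0757. Junb in KO S1P against WT S1P ran from -0.0279 to 0.00976 and Ier3 in KO against WT untreated from -0.10 to 0.14. In WT, Fosl2 with ACM ran from -0.00118 to 0.0639, Junb with ACM from -0.10 to 0.00938 and Junb with S1P from -0.0649 to 0.0477.

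No paired analysis was possible because the groups share no replicate numbers. Depth limits Fosb and Egr1 most, at 6 to 17 and 24 to 78 reads per library.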
